A study of Rattus norvegicus with 9 samples.

Results

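The genes described are 8 that encode secreted growth factors, Csf1, Lif, Osm, Hbegf, Areg, Vegfa, Tgfb1 and Pdgfa, matched by symbol among the 38490 gene rows listed for RBL-2H3, a leukemia line of rat basophils that serves as a model of mast cells (MCs). Csf1 was chosen by its measured fall in the PF samples, so its levels are given as a description with no test. Of the 8, 7 had a value and Areg had none in any sample. The 3 Ctrl samples are labelled untreated in one field, whereas another field gives them the sensitization and stimulation, and whether they had IgE therefore remains unclear. For the 3 DNP samples, sensitization lasted 12 h with anti-DNP IgE at 50 ng/mL, and a stimulation of 4 h followed with DNP-HSA at 100 ng/mL, the antigen that crosslinks the bound IgE. The 3 PF samples had the same IgE and antigen and were pretreated with PF for 1 h, and PF is not identified in the sources used here. For PF replicates 1, 2 and 3 one label field gives a stimulation of 4, 5 and 6 h and another gives 4 h for all. All 9 samples come from 1 cell line, and the labels do not state that replicates were separate cultures. The paper speaks of independent experiments without saying which cultures gave these samples, so p-values measure the spread between these samples, which may be technical.

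Growth factors of this kind act on other cells. CSF1 is the main survival and differentiation factor of macrophages and acts through the receptor CSF1R. LIF and OSM belong to the IL-6 family and signal through receptor complexes that contain gp130, encoded by Il6st. HBEGF and AREG are ligands of the EGF receptor that are cut from the cell surface by ADAM proteases. VEGFA drives the growth of blood vessels, PDGFA acts on mesenchymal cells, and TGFB1 is released as a latent complex that must be activated outside the cell. MCs are known as a source of several of these factors after crosslinking of their IgE receptor.

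Upstream sequence was looked up for the members in RefSeq windows of the GRCr8 assembly, a different build from the rn6 assembly named for the deposited values. Entries matched 5 of the 8 members, and the windows used held none for Csf1, Lif and Osm, which were therefore not searched. The 250 bases before the gene start are shown for Areg, the member with no value, for Vegfa, a member whose level differed little between groups, and for Tgfb1, a member that rose. They lie at chr14:17265642-17265891 on the minus strand for Areg, at chr9:22452604-22452853 on the plus strand for Vegfa, which has a further window, and at chr1:90324062-90324311 on the plus strand for Tgfb1. Capitals mark matches to the motifs searched.
Areg: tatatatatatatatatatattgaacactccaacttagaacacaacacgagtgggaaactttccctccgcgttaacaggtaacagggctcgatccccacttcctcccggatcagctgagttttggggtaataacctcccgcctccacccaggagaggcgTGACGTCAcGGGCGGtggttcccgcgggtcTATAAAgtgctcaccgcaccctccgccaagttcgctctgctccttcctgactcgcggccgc
Vegfa: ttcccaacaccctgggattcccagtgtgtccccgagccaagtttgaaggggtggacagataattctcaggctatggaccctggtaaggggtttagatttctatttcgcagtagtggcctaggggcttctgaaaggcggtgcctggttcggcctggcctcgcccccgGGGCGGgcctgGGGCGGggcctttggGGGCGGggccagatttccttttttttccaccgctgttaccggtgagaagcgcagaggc
Tgfb1: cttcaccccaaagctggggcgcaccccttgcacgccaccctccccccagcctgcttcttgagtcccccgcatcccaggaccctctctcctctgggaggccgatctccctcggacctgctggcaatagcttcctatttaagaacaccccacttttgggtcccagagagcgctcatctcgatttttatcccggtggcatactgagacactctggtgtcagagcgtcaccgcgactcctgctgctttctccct
Both strands were searched for AP-1 sites spelled TGANTCA, for the cyclic AMP response element (CRE) spelled TGACGTCA, for EGR sites spelled GCGNGGGCG and for SP1 boxes spelled GGGCGG, and the latter pair can overlap. The core promoter box TATAAA and the hypoxia response element (HRE) with the letters TACGTG were searched as well. The Areg window held a CRE match from 91 to 84 bases before the start, an SP1 match from 82 to 77 and a core promoter box from 61 to 56. The first Vegfa window held 3 SP1 matches, from 84 to 79, from 73 to 68 and from 58 to 53 bases before the start, and the Tgfb1 window held none of the 6 motifs. Among 33469 windows of the same length, 30.5% held an SP1 match, 12.9% a core promoter box and 1.59% a CRE match. AP-1, EGR and HRE letters, found in 6.34%, 4.29% and 2.95% of all windows, were in no window of the 5 members with an entry. Only these spellings within 250 bases were searched, so sites spelled otherwise or lying elsewhere, for Vegfa as for the others, would be missed. A match is a description of letters and not evidence of binding.

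The values are read as FPKM, fragments scaled by transcript length and by the mapped total, so levels of different genes can be set side by side per length. The sum over all genes ran from 573023 to 591539 FPKM over the Ctrl and DNP samples and from 610206 to 630069 FPKM over the PF samples. The depth in reads is unknown, while low values of 7 genes, which move in whole steps, gave relative depths of 0.981 to 1.02 over the 9 samples. All 12 mast cell markers with a value, of 14 listed, were at or above 1 FPKM in each group mean, and their sum ran from 5646 to 5752 FPKM in DNP, from 5833 to 5988 in Ctrl and from 5766 to 5990 in PF. Markers of fibroblasts (5 of 7 with a value) and of epithelium (4 of 6) summed to at most 0.63 and 1.15 FPKM in any sample. The labels give the tissue as peripheral blood, and of the T and B cell markers (7 of 9 with a value) 1 reached 1 FPKM, with a sum of 8.02 to 11.05 FPKM. Macrophage markers (7 of 8) summed to 25.6 to 27.2 FPKM in Ctrl, 32.7 to 36.4 in DNP and 27.6 to 30.3 in PF, with at most 2 at or above 1 FPKM. Most of this sum was Itgam, at 23.12 to 33.81 FPKM over the 9 samples. Endothelial markers (5 of 6) summed to 66.5 to 69.9 FPKM in Ctrl, 62.9 to 68.8 in DNP and 50.3 to 55.4 in PF. The 2 at or above 1 FPKM were Pecam1, at 43.65 to 61.78 FPKM, and Tek, at 6.28 to 8.1 FPKM. Kdr was listed at 0.02 or less. The part of these sums in the results below was not tested.

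Csf1, the macrophage growth factor (gene ID 78965), was the most highly expressed member in Ctrl and DNP samples and ranked below Tgfb1 and Lif in PF samples. It stood at 329, 337 and 307 FPKM in the Ctrl samples, at 455, 443 and 452 FPKM in DNP and at 163, 168 and 165 FPKM in PF. The groups did not overlap, and the PF samples lay below both others, which rests in part on the choice of Csf1. The part of the stimulation times, on which the PF label fields differ, was not tested. The means were 324 ± 15.8, 450 ± 6.09 and 165 ± 2.54 FPKM (SD, n = 3 each). DNP was 1.39 times Ctrl, on a log2 scale a fold change (log2FC) of 0.47 (SE 0.0402), and PF was 0.367 times DNP, with log2FC = -1.44 (SE 0.0290). Against Ctrl, PF was 0.510 times as high, with log2FC = -0.97 (SE 0.0427). All 3 comparisons share samples with the contrast for which Csf1 was picked, so no p is given. Among the genes tested Csf1 ranked 60 from the lowest of 10329 in PF vs DNP and 315 from the highest of 10392 in DNP vs Ctrl. In bulk RNA, fewer cells that express a gene and less RNA per cell cannot be told apart.

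**Figure D1:**
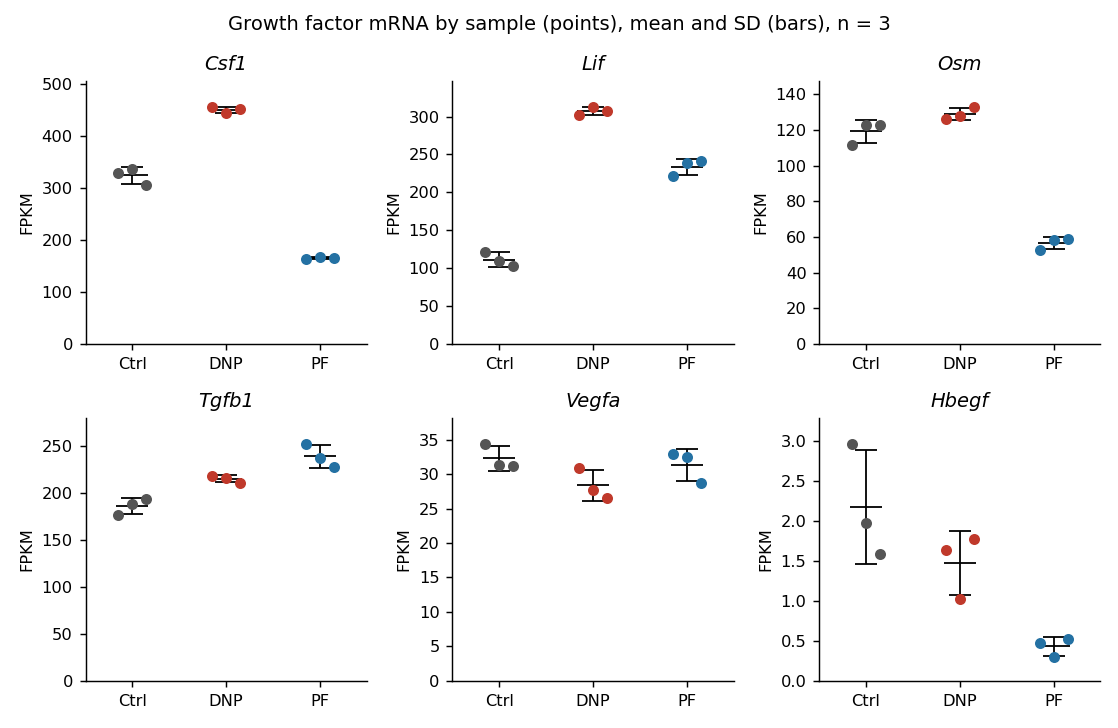
FPKM of 6 growth factor genes in each sample (points, 3 replicates per group from left to right) with the group mean and SD (bars), each panel on its own linear axis from 0. Csf1 and Osm are lowest in PF, Lif is highest in DNP, Tgfb1 is highest in PF, and the Vegfa points lie between 26.6 and 34.4 FPKM.

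Lif, an IL-6 family cytokine (gene ID 60584), rose most of the tested members after stimulation. Its levels were 122, 110 and 103 FPKM in Ctrl, 302, 312 and 308 FPKM in DNP and 222, 239 and 241 FPKM in PF. No group overlapped another, and PF lay between the others. The means were 112 ± 9.35, 307 ± 5.20 and 234 ± 10.5 FPKM (SD, n = 3 each), and DNP was 2.75 times Ctrl, with log2FC = 1.46 (SE 0.0556, limma adjusted p = 1.86e-06). This ranked 15 from the highest of 10392 genes, and 0.279% of the genes tested were called with a log2 fold change of at least 1. In PF, Lif fell to 0.762 times its DNP level, with log2FC = -0.39 (SE 0.0381, limma adjusted p = 5.27e-05). It stayed 2.10 times as high as in Ctrl, with log2FC = 1.06 (SE 0.0622, limma adjusted p = 4.03e-06).

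Osm, encoding oncostatin M of the same family (gene ID 289747), lies next to Lif in the GRCr8 annotation with 0 protein-coding genes between them. Osm stood at 112, 123 and 123 FPKM in Ctrl, at 126, 128 and 133 FPKM in DNP and at 52.8, 58.4 and 59.2 FPKM in PF. The DNP samples lay just above the Ctrl samples and the PF samples far below both. The means were 119 ± 6.35, 129 ± 3.34 and 56.8 ± 3.51 FPKM (SD, n = 3 each). The log2 fold change in DNP vs Ctrl was 0.11 (SE 0.0441, limma adjusted p = 0.0883) and did not pass the threshold, and without Ctrl replicate 1 it was 0.069 (limma adjusted p = 0.203). With samples scaled to the mean sum it was 0.13, with a limma adjusted p of 0.041. In PF, Osm fell to 0.441 times its DNP level, with log2FC = -1.17 (SE 0.0473, limma adjusted p = 5.61e-07), and ranked 130 from the lowest of 10329 genes. It was also below Ctrl, with a ratio of 0.477 and log2FC = -1.06 (SE 0.0570, limma adjusted p = 2.64e-06). For these neighbouring genes, PF samples were above Ctrl samples for Lif and below them for Osm.

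Tgfb1 (gene ID 59086), which encodes a cytokine that restrains inflammation and drives matrix production, rose in small steps from Ctrl to DNP to PF. Its levels were 177, 189 and 194 FPKM in Ctrl, 219, 216 and 211 FPKM in DNP and 252, 237 and 228 FPKM in PF. The groups did not overlap, although the gap between the highest DNP and the lowest PF sample was small. The means were 187 ± 8.41, 215 ± 3.60 and 239 ± 12.2 FPKM (SD, n = 3 each). DNP was 1.15 times Ctrl, with log2FC = 0.21 (SE 0.0389, limma adjusted p = 0.00585). PF was 1.11 times DNP, with log2FC = 0.15 (SE 0.0402, limma adjusted p = 0.0134), and 1.28 times Ctrl, with log2FC = 0.36 (SE 0.0497, limma adjusted p = 0.000378). The step from DNP to PF depended on scaling, since with samples scaled to the mean sum it was 0.052 with a limma adjusted p of 0.318.

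Vegfa (gene ID 83785), the vascular growth factor, was expressed far below Csf1, and its groups lay close together. It stood at 34.4, 31.3 and 31.2 FPKM in Ctrl, at 30.9, 27.7 and 26.6 FPKM in DNP and at 32.9, 32.4 and 28.7 FPKM in PF. DNP samples lay below Ctrl samples without overlap, and PF samples overlapped both. The means were 32.3 ± 1.79, 28.4 ± 2.24 and 31.3 ± 2.30 FPKM (SD, n = 3 each). The log2 fold change in DNP vs Ctrl was -0.18 (SE 0.0632, limma adjusted p = 0.0632) and did not pass the threshold, but did so without DNP replicate 1, at -0.24 with a limma adjusted p of 0.0258. In PF vs DNP it was 0.14, with a 95% interval from -0.0166 to 0.294 (limma adjusted p = 0.125). It passed there without DNP replicate 1 (limma adjusted p = 0.0432), without PF replicate 3 (limma adjusted p = 0.0354) and under median ratio scaling (limma adjusted p = 0.0401). In PF vs Ctrl the log2 fold change was -0.04, with a 95% interval from -0.188 to 0.103 (limma adjusted p = 0.589), and its sign changed with scaling.

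Hbegf (gene ID 25433), an EGF receptor ligand, was expressed near the filter of 1 FPKM. It stood at 2.96, 1.97 and 1.58 FPKM in Ctrl, at 1.64, 1.02 and 1.77 FPKM in DNP and at 0.48, 0.30 and 0.52 FPKM in PF. Ctrl and DNP overlapped, and all PF samples were below 1 FPKM and below every other sample. In DNP vs Ctrl the means of 2.17 ± 0.711 and 1.48 ± 0.401 FPKM (SD, n = 3 each) gave log2FC = -0.35 (SE 0.178, limma adjusted p = 0.178). It was -0.17 without Ctrl replicate 1 (limma adjusted p = 0.455) and -0.21 without DNP replicate 2 (limma adjusted p = 0.438). The PF mean was 0.433 ± 0.117 FPKM (SD, n = 3), 0.293 times DNP and 0.200 times Ctrl. Hbegf passed the filter in the PF comparisons only through the DNP or Ctrl samples, so a difference was built into its selection and its log2 fold changes of -0.78 and -1.13 are given without a p. Areg, the related EGF receptor ligand, had no value in any sample. Pdgfa (gene ID 25266), a ligand of the PDGF receptors, was listed at 0 in all Ctrl samples, at 0, 0 and 0.09 FPKM in DNP and at 0.06, 0.06 and 0.03 FPKM in PF, and was not tested.

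Across the members with a test, Csf1 left out, 2 of 5 were called at an adjusted p of 0.05 in DNP vs Ctrl, both higher (Lif and Tgfb1), against 29.2% of all 10392 genes tested, with 14.7% called higher and 14.4% lower. The median log2 fold change of the 5 was 0.11 and that of all genes tested was -0.008. In PF vs DNP, with Hbegf also left out, 3 of 4 were called, Lif and Osm lower and Tgfb1 higher, against 48.8% of 10329 genes. Of all genes 30.7% were called lower and 18.1% higher, and the medians were -0.13 for the 4 members and -0.038 for all genes. Higher genes made up 37.1% of the calls in PF vs DNP, but 51.5% under median ratio scaling and 16.8% with samples scaled to the mean sum. In PF vs Ctrl 3 of 4 were called, Lif and Tgfb1 higher and Osm lower, against 57.7% of 10361 genes (23.1% higher and 34.6% lower), with medians of 0.16 and -0.047. There, higher genes made up 40.0%, 51.1% and 26.7% of the calls under the same settings. Groups that did not overlap were found for 45.8% of the genes tested in DNP vs Ctrl, 57.6% in PF vs DNP and 64.8% in PF vs Ctrl. The 3 comparisons share samples with each other, and each was fitted to its own 6.

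**Figure D2:**
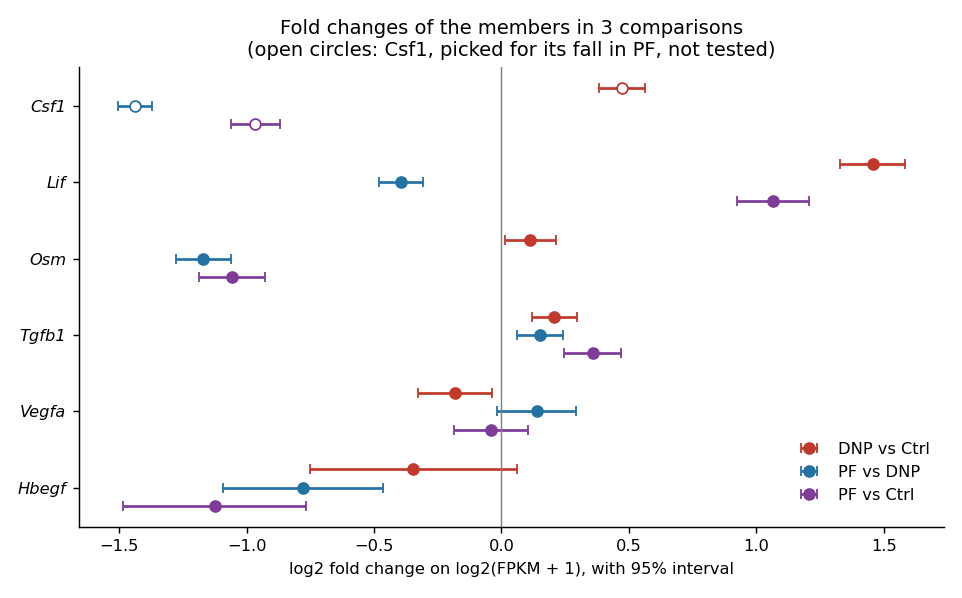
Log2 fold change on the log2(FPKM + 1) scale (horizontal axis) with its 95% interval (bars) for 6 growth factor genes in DNP vs Ctrl, PF vs DNP and PF vs Ctrl. Lif lies at 1.46, -0.39 and 1.06, Osm at 0.11, -1.17 and -1.06, and the open circles of Csf1 mark values that were not tested. The bars of Csf1 show spread between samples only and are no test against 0, since Csf1 was picked for its fall in PF. Hbegf is drawn filled throughout. In PF vs DNP and PF vs Ctrl it passed the filter only through the other group, so its bars there are no test either.

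Which growth factor mRNA was most abundant differed between the groups. In Ctrl the order by mean was Csf1, Tgfb1, Osm, Lif, Vegfa, Hbegf and Pdgfa, and Osm and Lif overlapped. In DNP it was Csf1, Lif, Tgfb1, Osm, Vegfa, Hbegf and Pdgfa, with no overlap between neighbours. In PF it was Tgfb1, Lif, Csf1, Osm, Vegfa, Hbegf and Pdgfa, and Tgfb1 and Lif overlapped. Summed over the 7 members with a value, the level was 776 ± 16.6 FPKM in Ctrl, 1132 ± 3.14 in DNP and 727 ± 6.91 in PF (SD, n = 3 each). Csf1 was picked for its fall in PF, so this sum, the order and the shares rest in part on that choice. Without Csf1 the sum of the other 6 was 452 ± 3.56 FPKM in Ctrl, 682 ± 2.95 in DNP and 562 ± 4.67 in PF (SD, n = 3 each). Csf1 made up 41.8% of the sum in Ctrl, 39.8% in DNP and 22.7% in PF. The share of Lif was 14.4%, 27.2% and 32.2% and that of Tgfb1 24.1%, 19.0% and 32.9%. From DNP to PF the share of Lif was higher although its level fell. Among 18006 genes with a value, Csf1 ranked 265, 183 and 570 by mean level in Ctrl, DNP and PF, Lif ranked 825, 277 and 404, and Osm ranked 757, 694 and 1743.

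The receptors of most of these factors were at or near 0 in the same cells. Of 20 receptor genes listed, 18 had a value and 3 passed the filter. Csf1r, the receptor of CSF1, was at 0.17 to 0.44 FPKM over the 9 samples, whereas Csf1 was at 163 to 455 FPKM. Lifr was at 0.03 to 0.12, Il6st at 0 to 0.04 and Osmr at 0 to 0.03 FPKM, and Egfr, which binds HBEGF, at 0.02 to 0.06 FPKM. The VEGF receptors Kdr and Flt1 were at most at 0.02 and 0.04 FPKM, and the co-receptor Nrp1 was at 1.10 to 1.66 FPKM. Tgfbr1 and Tgfbr2 were well above the filter, while Tgfbr3 was at 0 to 0.02 FPKM. Tgfbr1, the signalling subunit, stood at 20.5, 18.7 and 18.6 FPKM in Ctrl, 27.7, 27.8 and 27.1 in DNP and 27.0, 25.5 and 29.2 in PF. It rose in DNP vs Ctrl by 0.50 on the log2 scale (limma adjusted p = 0.000312), and in PF vs DNP its log2 fold change was -0.02 (limma adjusted p = 0.788). Tgfbr2, the ligand-binding subunit, stood at 11.0, 11.6 and 12.4 FPKM in Ctrl, 13.2, 12.6 and 11.8 in DNP and 6.69, 6.16 and 6.36 in PF. It fell in PF vs DNP, with a log2FC of -0.87 (limma adjusted p = 7.93e-06), and against Ctrl, with -0.78 (limma adjusted p = 2.28e-05). In DNP vs Ctrl its log2 fold change was 0.09 (limma adjusted p = 0.297). Of the 3 receptors tested, 1 was higher and none lower in DNP vs Ctrl, none was higher and 1 lower in PF vs DNP, and 1 was higher and 1 lower in PF vs Ctrl, beside 29.2%, 48.8% and 57.7% of all genes called.

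**Figure D3:**
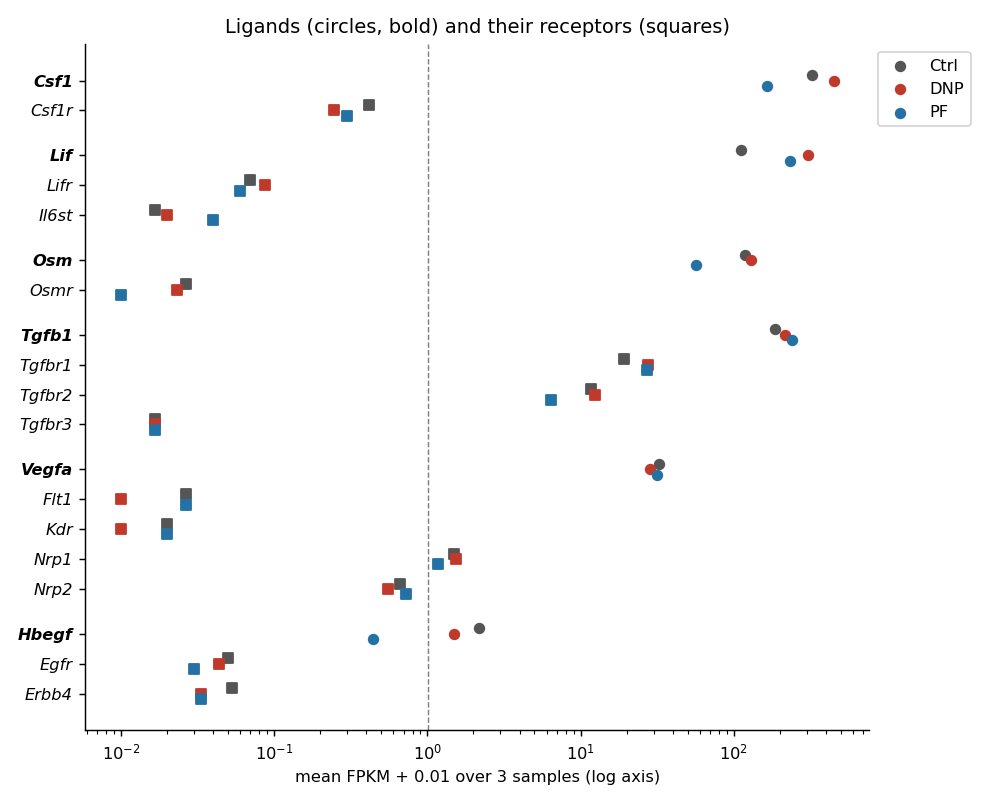
Mean FPKM plus 0.01 over 3 samples (log axis) of 6 growth factor genes (circles, bold names) and of receptors for each (squares), in Ctrl, DNP and PF, with a dashed line at the filter of 1 FPKM. Of the receptors drawn, Tgfbr1, Tgfbr2 and Nrp1 lie to the right of the line.

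Genes whose products release or activate these ligands included several with lower mRNA in PF. Of 23 listed, 21 had a value and 10 were tested, and in PF vs DNP 6 of the 10 were lower, 4 did not pass and none was higher, beside 30.7% lower and 18.1% higher of all genes tested, a lean that changed with scaling. The 10 had a median log2 fold change of -0.21, against -0.038 for all genes. Furin, a convertase that cleaves growth factor precursors such as pro-TGFB1, stood at 16.9, 18.1 and 18.4 FPKM in Ctrl, 19.3, 19.9 and 19.5 in DNP and 8.42, 6.87 and 7.27 in PF. The PF samples did not overlap the others, and Furin fell by 1.27 on the log2 scale in PF vs DNP (limma adjusted p = 2.12e-06). Nrros, which tethers latent TGFB1 on the cell surface, stood at 39.2, 41.1 and 41.9 FPKM in Ctrl, 36.9, 39.7 and 37.1 in DNP and 17.2, 15.3 and 17.0 in PF. It fell by 1.15 on the log2 scale in PF vs DNP (limma adjusted p = 1.05e-06). Rhbdf2, an iRhom that the sheddase ADAM17 needs for maturation, fell by 0.86 (limma adjusted p = 3.5e-05), and Adam17 itself had a log2FC of -0.23 (limma adjusted p = 0.00717). Furin, Nrros and Rhbdf2 were also lower than in Ctrl, with log2 fold changes of -1.14, -1.26 and -0.76 (limma adjusted p = 7.33e-06, 1.31e-06 and 5.51e-05). Adam10, another ectodomain sheddase, rose in DNP vs Ctrl from 20.5 ± 1.00 to 34.5 ± 2.31 FPKM (SD, n = 3 each), by 0.72 on the log2 scale (limma adjusted p = 0.000149). It fell by 0.61 in PF vs DNP (limma adjusted p = 0.00015), and in PF vs Ctrl its log2 fold change was 0.11 (limma adjusted p = 0.188). In DNP vs Ctrl 3 of the 10 were higher, Adam10, Adam12 and Itgav, and none lower, beside 29.2% of all genes called in either direction. Without Ctrl replicate 2 or 3, or without DNP replicate 1 or 2, Adam10 alone was called. In PF vs Ctrl 1 was higher, 4 were lower and 5 did not pass, beside 23.1% higher and 34.6% lower of all genes. The higher one, Adam12, lost its call without PF replicate 1 and with samples scaled to the mean sum. With single samples left out the lower count ran from 3 to 4, since Adam17 lost its call in at least 1 such fit.

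Other ligands of the same families were mostly not expressed. Of 36 listed, 30 had a value and 7 were tested. In DNP vs Ctrl 2 were higher, 3 lower and 2 did not pass, in PF vs DNP 2 were higher, 2 lower and 3 did not pass, and in PF vs Ctrl 2 were lower and 5 did not pass. Of all genes tested 29.2%, 48.8% and 57.7% were called in these comparisons. Leaving out DNP replicate 1 left 1 higher and 1 lower in DNP vs Ctrl, leaving out DNP replicate 2 left 1 higher there, and leaving out DNP replicate 3 left 1 lower. In PF vs DNP 1 was lower without DNP replicate 1 or 2 or PF replicate 2, and in PF vs Ctrl 1 was higher without Ctrl replicate 2 or 3 or PF replicate 3. Vegfc, the lymphatic member of the VEGF family, stood at 19.9, 19.7 and 21.8 FPKM in Ctrl, 30.1, 29.4 and 30.1 in DNP and 20.4, 19.4 and 18.9 in PF. It rose in DNP vs Ctrl by 0.52 on the log2 scale (limma adjusted p = 0.000248) and fell by 0.59 in PF vs DNP (limma adjusted p = 1e-05). Vegfb stood at 120, 135 and 162 FPKM in Ctrl, 108, 109 and 107 in DNP and 142, 152 and 140 in PF. It rose in PF vs DNP by 0.42 on the log2 scale (limma adjusted p = 3.14e-05), and its log2 fold change in DNP vs Ctrl was -0.35 (limma adjusted p = 0.022), a call that was lost without Ctrl replicate 2 and without any 1 of the DNP replicates. Gdf15, a distant TGF-beta relative induced by stress, stood at 31.1, 33.5 and 28.6 FPKM in Ctrl, 19.5, 15.1 and 14.6 in DNP and 22.2, 22.2 and 21.8 in PF. It fell by 0.89 on the log2 scale in DNP vs Ctrl (limma adjusted p = 0.000691) and rose in PF vs DNP by 0.42 (limma adjusted p = 0.00544). Pdgfd, related to Pdgfa, was lower in PF than in Ctrl, with a log2FC of -0.51 (limma adjusted p = 0.00117). Csf2, encoding GM-CSF and named after its values were seen, was listed at 0 in all Ctrl samples, at 1.32, 0 and 0.33 FPKM in DNP and at 0.16 FPKM in each PF sample, and was not tested.

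**Figure D4:**
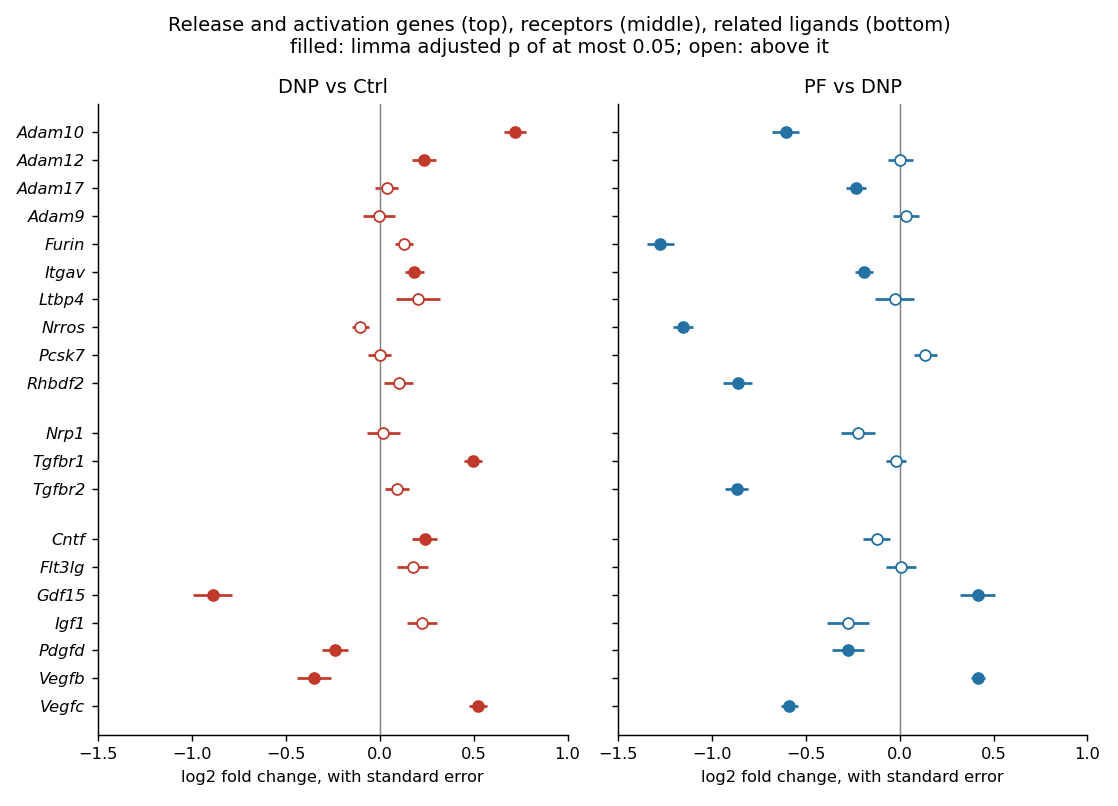
Log2 fold change with its standard error for release and activation genes (top), receptors (middle) and related ligands (bottom) in DNP vs Ctrl (left) and PF vs DNP (right), filled where the limma adjusted p was at most 0.05. Furin, Nrros, Tgfbr2 and Rhbdf2 lie furthest to the left in PF vs DNP, at -1.27, -1.15, -0.87 and -0.86.

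Genes known to respond to TGF-beta were described for their link to Tgfb1. In DNP vs Ctrl 6 of 12 listed were tested, of which 1 was higher, 1 was lower and 4 did not pass, and in PF vs DNP 5 were tested, of which 1 was lower and 4 did not pass. In PF vs Ctrl 1 of the 5 was higher, 3 were lower and 1 did not pass. The shares of all genes called were 29.2%, 48.8% and 57.7%. Tgif1, a repressor of TGF-beta signalling, stood at 30.8, 31.3 and 28.9 FPKM in Ctrl, 30.6, 27.7 and 29.2 in DNP and 14.4, 14.2 and 14.6 in PF. It fell by 0.97 on the log2 scale in PF vs DNP (limma adjusted p = 1.25e-06). The inhibitory Smad gene Smad7 had a log2 fold change of 0.36 in DNP vs Ctrl (limma adjusted p = 0.0196), which lost the call without Ctrl replicate 1 or 2 and without DNP replicate 1 or 3. Skil, a further repressor of the pathway, fell by 0.43 in DNP vs Ctrl (limma adjusted p = 0.00535). The genes of this list that passed moved in both directions. Leaving out DNP replicate 2 gave 2 higher genes in DNP vs Ctrl and 2 lower genes in PF vs DNP, and leaving out Ctrl replicate 1 or 2 or PF replicate 1 left none higher in PF vs Ctrl.

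Hypoxia regulators and targets, the set in which Vegfa is best known, had 12 genes listed, of which 9 were tested in DNP vs Ctrl. Of these, 2 were higher, 5 lower and 2 did not pass, beside 14.7% higher and 14.4% lower of all genes tested. Leaving out DNP replicate 3 left 1 higher and 3 lower, leaving out DNP replicate 2 left none higher, and leaving out Ctrl replicate 2 or DNP replicate 1 left 1 higher. The median log2 fold change of the 9 was -0.23, against -0.008 for all genes tested and -0.18 for Vegfa. Ddit4, a stress-induced inhibitor of mTOR signalling, stood at 49.6, 54.0 and 54.6 FPKM in Ctrl, 23.4, 24.8 and 24.1 in DNP and 30.9, 29.1 and 27.4 in PF. It fell by 1.10 on the log2 scale in DNP vs Ctrl (limma adjusted p = 3.34e-06) and rose in PF vs DNP by 0.26 (limma adjusted p = 0.00272). Ndrg1 stood at 100.04, 98.8 and 100.24 FPKM in Ctrl, 79.1, 76.6 and 78.9 in DNP and 56.5, 52.4 and 58.0 in PF. It fell by 0.35 in DNP vs Ctrl (limma adjusted p = 0.000217) and fell by 0.49 in PF vs DNP (limma adjusted p = 2.96e-05). Hif1a, which encodes the oxygen-regulated subunit of HIF-1, stood at 157 ± 1.41 FPKM in DNP and at 118 ± 4.19 FPKM in PF (SD, n = 3 each), and fell by 0.41 on the log2 scale (limma adjusted p = 2.29e-05). In PF vs DNP 1 of 8 tested was higher, 2 were lower and 5 did not pass, and in PF vs Ctrl 1 of 9 was higher, 5 lower and 3 did not pass, beside 48.8% and 57.7% of all genes called. Egln1, an oxygen-sensing hydroxylase, was the gene that was higher in PF than in Ctrl, with a log2FC of 0.52 (limma adjusted p = 0.000629).

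The genes whose profile was most like that of Csf1 were sought over the 9 samples, by the root mean square difference of log2(FPKM + 1) after the Ctrl mean of each gene was subtracted. Of 10503 genes compared, the nearest were Rassf6 at 0.0836, LOC108349819 at 0.0987, Otud7b at 0.104, Midn at 0.116 and Sh2d1b at 0.117. Rassf6 had mean levels of 19.2, 26.4 and 9.60 FPKM in Ctrl, DNP and PF, and Midn had 43.9, 53.6 and 22.6 FPKM. All were far below Csf1 in level. Their differences from Ctrl on this scale, by which they were chosen, were 0.28 to 0.59 in DNP and -0.86 to -1.01 in PF. Those of Csf1 were 0.47 and -0.97. The added 1 shrinks changes of low genes, such as LOC108349819 with mean levels of 2.43, 3.61 and 0.883 FPKM. For Lif the nearest were Atf3 at 0.128, Egr2 at 0.157 and Ankrd40 at 0.257. Atf3, an immediate early transcription factor, had mean levels of 17.9, 58.3 and 37.7 FPKM, and Egr2 had 0.0767, 2.46 and 1.36 FPKM. Egr2 was near 0 in Ctrl, where the added 1 shrinks its change, and reached 1 FPKM only in DNP and PF. Ankrd40 had 2.53, 7.16 and 7.86 FPKM, so unlike Lif its mean was not lower in PF than in DNP. These distances are descriptions, chosen over all genes, and carry no test.

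**Figure D5:**
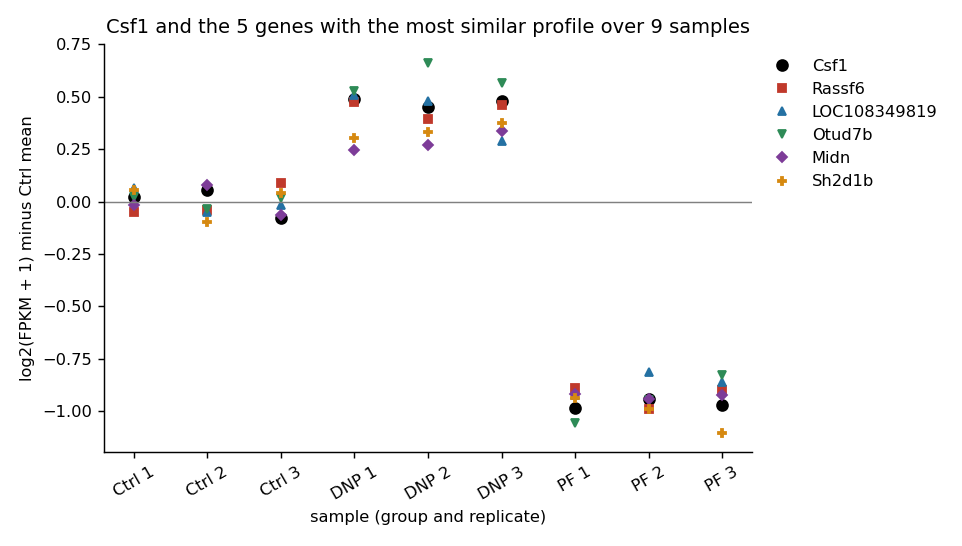
Log2(FPKM + 1) minus the Ctrl mean of each gene (vertical axis) in each of the 9 samples for Csf1 (black) and the 5 genes with the nearest profile. All 6 lie above 0 in the DNP samples and below -0.8 in the PF samples.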

How the data were processed

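RNA-seq values of 9 samples (3 Ctrl, 3 DNP, 3 PF) were used. Per the paper the authors cleaned reads with SOAPnuke, and the submitters' processing notes name HISAT2 2.0.4, Bowtie2 2.2.5, RSEM 1.2.12 and build rn6. The labels name Illumina library protocols and the paper BGISEQ-500. The values the authors deposited have no unit in their heading and were read as FPKM. A count test had been planned for counts, and no counts were analysed here. Of 38490 gene rows, 18006 had values. Genes that reached 1 FPKM in 3 or more of the 6 compared samples were tested with limma 3.58.1 (R 4.3.3, trend) on log2(FPKM + 1), which understates changes of low genes, with Benjamini-Hochberg adjustment over all genes and a threshold of 0.05. The test was checked on simulated data modelled on the Ctrl and DNP samples, with far fewer changed genes than were called here. That check does not cover the PF comparisons or their dependence on scaling. Two-sided exact permutation tests of single members cannot go below p = 0.1 with 3 samples against 3, and each member with a test, if its groups did not overlap, reached that p. From each gene list up to 3 called genes with the largest absolute log2 fold change per comparison were named, and others are named only where a count or receptor turns on them. The members and lists were chosen with earlier results of these data known. Alternatives were a pseudocount of 0.1, no filter, all 3 groups in the fit, a replicate block, 2 scalings, limma without trend, each sample left out and PF replicate 1 alone.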

Additional observations from a re-analysis of the deposited data

How the results depend on the processing

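Every call of Lif and Osm in PF vs DNP and PF vs Ctrl, and of Lif in DNP vs Ctrl, kept its direction and passed the threshold under all alternatives run. One of these used PF replicate 1 alone, where the spread came from the other group and the lone sample was assumed to vary like it. Of 239 values of members under alternatives, 223 counted as unchanged. For Csf1, which has no p, this meant a shift within the replicate spread. For the other members it meant the same direction and side of the threshold. The count includes Csf1, which was picked for its fall in PF, and Hbegf in the PF comparisons, where a difference was built into its selection. Values that were not called and stayed so also counted as unchanged. The count is therefore no measure of how firm the calls are. The log2 fold change of Vegfa in PF vs Ctrl turned positive under median ratio scaling (0.0232), without Ctrl replicate 1 (0.0016), without PF replicate 3 (0.0176; leave-one-out range from -0.0778) and with PF replicate 1 alone (0.0281). Tgfb1 in PF vs DNP lost its call with samples scaled to the mean sum. Csf1 moved by more than the replicate spread under scaling, to -1.38 (median ratios) and -1.54 (mean sum) in PF vs DNP and to -0.90 and -1.05 in PF vs Ctrl. Scaling to the mean sum shifted the median log2 fold change of all genes to -0.128 in PF vs DNP and -0.12 in PF vs Ctrl, and median ratios shifted it to 0.0192 and 0.0148. In PF vs Ctrl all same-numbered replicates deviated together (correlations of 0.0908, 0.189 and 0.0830), against -0.129 to 0.0290 for unlike numbers. In the other comparisons same-numbered correlations varied in sign, from -0.0822 to 0.0514, and those of unlike numbers ran from -0.0870 to 0.106. The numbers were therefore not taken as a pairing. With the replicate block 2697, 4675 and 6009 genes were called in DNP vs Ctrl, PF vs DNP and PF vs Ctrl, against 3031, 5042 and 5975 without it, and Vegfa passed in DNP vs Ctrl (limma adjusted p = 0.0232) and in PF vs DNP (limma adjusted p = 0.0467). Leaving out each sample in turn gave 2099 to 2736, 4138 to 4796 and 5147 to 5541 called genes. In those fits Hbegf was tested in 3 of 6 in each PF comparison, because the other 3 left it under the filter, as did median ratio scaling in PF vs DNP. Without read counts, precision rests on 3 replicates per group.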
